A study of Mus musculus with 6 samples.

Results

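The deposited table of polyA+ RNA from embryonic cortex lists 59484 features, of which 35979 carry an identifier and a position but no gene symbol. The unnamed features described here lie outside every feature with a symbol, have a mean of at least 10 normalized counts over the 6 libraries, and lie outside 2 windows that surround the deleted genes on chromosomes 4 and 15. They numbered 1714, which is 9.04% of the 18970 features at that level and 9.86% of the unnamed features outside named genes and windows at any level. Another 2615 unnamed features at that level lay within the span of a named gene, and 38 lay in the windows. They were selected on the mean over all 6 libraries and on no other measured value. The 3 lowest means inside the threshold were 10.04, 10.05 and 10.07, and the 3 highest just outside it were 9.99, 9.97 and 9.97. In 129 of the 1714 only 1 genotype reached a mean of 10, with wild-type below it in 54 and dKO below it in 75.

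The study compared cortices of C57BL/6 mouse embryos at embryonic day 18.5 between 3 wild-type and 3 Sam68:Slm2 dKO samples, the latter with both genes for these STAR-family RNA-binding proteins knocked out. Khdrbs1, the gene of Sam68, read 8231, 8436 and 7974 normalized counts in wild-type and 114, 197 and 146 in dKO cortex. Khdrbs3, the gene of SLM2, read 13543, 15215 and 12764 against 7060, 6350 and 6547. Between 31837922 and 40896541 reads stood behind a library, and features without a symbol held 8.48% to 9.62% of them. The 8 cortical markers examined summed to between 68620 and 104144 normalized counts per library and the genotypes overlapped, whereas 4 choroid plexus markers summed to at most 80.7. 4 meningeal markers summed to 617, 273 and 924 in wild-type and to 272, 338 and 284 in dKO cortex, and their part in the results was not tested. Wild-type 2 and dKO 3 carried Xist without transcripts of the Y chromosome, and the other 4 libraries the reverse. 87 of the unnamed features lay on the X chromosome.

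Transcription does not stop at the borders of annotated genes. RNA outside them can come from long non-coding transcripts, from read-through or longer 3′ ends of a neighbouring gene, from unspliced or promoter-associated RNA, or from processed pseudogenes, which are copies of an mRNA inserted elsewhere in the genome. Because such copies keep the sequence of the parent gene, a short read from the parent may fit the copy as well as its origin. Sam68 and SLM2 bind A- and U-rich motifs in nuclear RNA and influence splicing and the choice of 3′ ends.

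The sequences of a few features carry much of what follows, and they are shown first, 5′ to 3′ on the transcribed strand, from GENCODE M21 transcripts on GRCm38 (mm10). GSMG0024608 rose in dKO cortex and holds a stretch of the processed pseudogene Gm4202 (chr3:92689426-92689575, plus strand). It is set against the coding sequence of Ywhaz, which encodes a 14-3-3 adaptor protein (chr15:36790827-36790976, minus strand). Capitals mark the 2 of 150 bases that differ, both at the 3′ end.
Gm4202: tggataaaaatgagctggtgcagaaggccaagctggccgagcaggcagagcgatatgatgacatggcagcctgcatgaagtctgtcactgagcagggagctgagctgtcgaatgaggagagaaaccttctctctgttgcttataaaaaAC
Ywhaz: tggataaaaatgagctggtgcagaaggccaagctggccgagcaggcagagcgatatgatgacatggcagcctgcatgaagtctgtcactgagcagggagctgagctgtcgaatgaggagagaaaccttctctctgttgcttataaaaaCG

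The next 3 stretches show how closely pseudogenes within other features match a coding sequence, with 0 bases that differ and hence no capitals. Gm14287 (chr2:157528872-157528911, minus strand) is identical over 40 bases to Ywhaz. Its exon covers only 43 of the 407 bases of GSMG0043257, which also rose. Gm11223, in GSMG0027930, the feature with the highest mean outside the mitochondrial genome (chr4:69925930-69926079, minus strand), is identical over 150 bases to the start of the coding sequence of Stmn1, the gene of the microtubule regulator stathmin. Gm12671, in GSMG0068816, which was at 0 in 3 of the 6 libraries (chr4:91852550-91852669, minus strand), is identical over 120 bases to the start of the coding sequence of the glycolytic enzyme gene Gapdh and to that stretch of Gm13394 on chromosome 2.
Gm14287: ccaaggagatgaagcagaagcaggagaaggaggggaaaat
Gm11223: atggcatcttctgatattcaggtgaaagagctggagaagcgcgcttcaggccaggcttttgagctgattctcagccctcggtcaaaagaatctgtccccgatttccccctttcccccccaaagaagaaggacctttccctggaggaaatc
Gm12671: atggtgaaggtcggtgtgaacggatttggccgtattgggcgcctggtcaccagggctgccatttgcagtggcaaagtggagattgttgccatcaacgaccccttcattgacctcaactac

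Features of lower level in dKO cortex are shown with TAAA and TTAA in capitals, the DNA letters of motifs known for Sam68 and SLM2, searched on the transcribed strand only and with overlapping matches each counted. CT573017.2 fills GSMG0016876 (first 150 bases, chr17:68844025-68844174, plus strand), Gm3510 is the non-coding RNA of GSMG0030194 (chr5:15924969-15925118, minus strand), and the third is coding sequence of Ahnak2, the gene of a large scaffold protein, in GSMG0009352 (chr12:112775491-112775640, minus strand).
CT573017.2: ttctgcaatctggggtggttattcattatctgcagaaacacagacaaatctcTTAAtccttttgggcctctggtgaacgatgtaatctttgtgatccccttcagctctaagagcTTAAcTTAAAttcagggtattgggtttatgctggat
Gm3510: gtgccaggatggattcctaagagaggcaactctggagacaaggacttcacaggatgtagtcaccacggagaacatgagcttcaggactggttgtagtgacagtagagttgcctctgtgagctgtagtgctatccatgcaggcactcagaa
Ahnak2: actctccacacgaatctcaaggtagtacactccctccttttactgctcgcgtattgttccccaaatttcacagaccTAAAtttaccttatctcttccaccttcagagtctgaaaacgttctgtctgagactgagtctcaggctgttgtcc

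The CT573017.2 window held 4 matches, the Gm3510 window 0 and the Ahnak2 window 1, and 50.3% of the first 150 bases of 1064 unnamed features with that much contiguous transcript held at least 1. Over the whole stretch, matches per kb were 19.6 in GSMG0016876, 17.6 in GSMG0030194 and 3.77 in GSMG0009352, beside a median of 9.61. GSMG0007870, which also fell, held 24.7. By the GENCODE classes explained below, the medians were 13.3 for TEC, 10.1 for long non-coding, 12.5 for protein-coding and 4.85 for pseudogene features. The presence of these letters is a description of sequence and says nothing about binding.

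The unnamed features were short, with a median span of 1811 bases (21 to 617162), against 24418 for features with a symbol at the same level. By distance, 471 lay within 1 kb of a named gene, 596 at 1 to 10 kb, 448 at 10 to 100 kb, 186 beyond 100 kb, and 13 on the mitochondrial genome, where no feature had a symbol. By the strand of the named gene, 898 were downstream and 721 upstream. 182 overlapped another of the unnamed features, so that the features are not all independent.

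Most nevertheless matched something in the GENCODE annotation, and 1330 overlapped a GENCODE gene. By the gene with the most exonic bases, 456 were pseudogenes, 411 protein-coding, 291 long non-coding and 103 TEC, a GENCODE class of transcribed loci still to be tested in experiments. A further 57 lay only in introns and 383 overlapped no GENCODE gene, 159 of these with a RefSeq gene. Protein-coding features had a median of 149 normalized counts, pseudogenes 107, TEC 43.6 and those without a GENCODE gene 37.1.

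Among the 1714, 5 were called between the genotypes at an adjusted P-value under 0.05 (limma, adjusted over all 18970 features), where 19 of all features (0.1%) were. 2 of the 5 rose and 3 fell in dKO cortex, beside 0.0527% and 0.0474% of all features. With unadjusted P-values under 0.05, 200 (11.7%) were counted, 101 higher and 99 lower, against 11.5% of all features. Of the 200, 28 were among the 129 in which only 1 genotype reached a mean of 10. The filter favoured their direction, and the counts by class and distance below include them. In 280 (16.3%) the 3 dKO libraries did not overlap the 3 wild-type libraries, against 16.4% of all features. The dKO libraries were the higher ones in 151 and the lower ones in 129, beside 7.89% and 8.48% of all features. The median log2 fold change was 0.03 against 0.00 over all features. DESeq2 on the recovered reads called 32 (18 higher, 14 lower; 1.87%) where it called 1.09% of all features (0.327% higher, 0.764% lower). edgeR called the same 5, beside 0.0527% of all features higher and 0.0474% lower. Since the cortex was measured in bulk, fewer cells that contain a transcript and less of it per cell cannot be told apart.

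The 2 features that rose both overlap Ywhaz pseudogenes, to unlike extents. Exon of Gm4202 covers 151 of the 172 bases of GSMG0024608, and exon of Gm14287 only 43 of the 407 bases of GSMG0043257. GSMG0024608, 2194 bases upstream of Lce1d, read 3372, 3038 and 3263 normalized counts in wild-type and 5748, 7528 and 5645 in dKO cortex, a log2 fold change of 0.96 ± 0.11 (SE; adjusted P-value 0.0113). GSMG0043257 read 1344, 1349 and 1232 against 2938, 4798 and 3024, a log2 fold change of 1.42 ± 0.17 (adjusted P-value 0.0182). In both, dKO 2 was highest and the genotypes did not overlap. The call of GSMG0043257 was lost without wild-type 1 (adjusted P-value 0.151) or wild-type 3 (0.0699). The feature named Ywhaz read 18599, 16301 and 16922 in wild-type and 16727, 13567 and 15491 in dKO cortex, and overlapped between genotypes.

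Of the 3 features that fell, GSMG0007870 (chr12:17992862-18065607) spans 5 GENCODE pseudogene or non-coding loci that include Gm49328, 200933 bases downstream of the calcium sensor gene Hpcal1. It read 782, 759 and 661 in wild-type and 287, 323 and 313 in dKO cortex (log2 fold change -1.25 ± 0.12, adjusted P-value 0.00244). A second feature of the same locus, GSMG0007867 (chr12:17881906-17939630), read 529, 615 and 634 against 376, 301 and 336, again without overlap, but missed the threshold (-0.81 ± 0.13, adjusted P-value 0.0656). Hpcal1 itself had a log2 fold change of -0.42.

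GSMG0016876 (chr17:68844025-68846527), the TEC locus CT573017.2, starts 887 bases downstream of Tmem200c, a membrane protein gene. It read 157, 126 and 90.3 in wild-type and 28.1, 24.1 and 23.2 in dKO cortex, a log2 fold change of -2.23 ± 0.28 (adjusted P-value 0.0182), beside -0.24 for Tmem200c. GSMG0009352 (chr12:112772194-112775640), coding exon of Ahnak2, read 74.2, 85.9 and 66.6 against 16.3, 18.8 and 9.28 (-2.32 ± 0.35, adjusted P-value 0.0439), beside 0.22 for the neighbouring phospholipase gene Pld4. These were features of low level, and each library of either genotype was on its own side. The call of GSMG0009352 was lost without any 1 of the 6 libraries, with adjusted P-values of 0.0529 to 0.196. That of GSMG0016876 was lost without wild-type 1 (0.106), wild-type 2 (0.0523), dKO 2 (0.0629) or dKO 3 (0.0782). Without the trend and robust options of limma none of the 5 passed, with adjusted P-values of 0.0616 to 0.232.

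**Figure D1:**
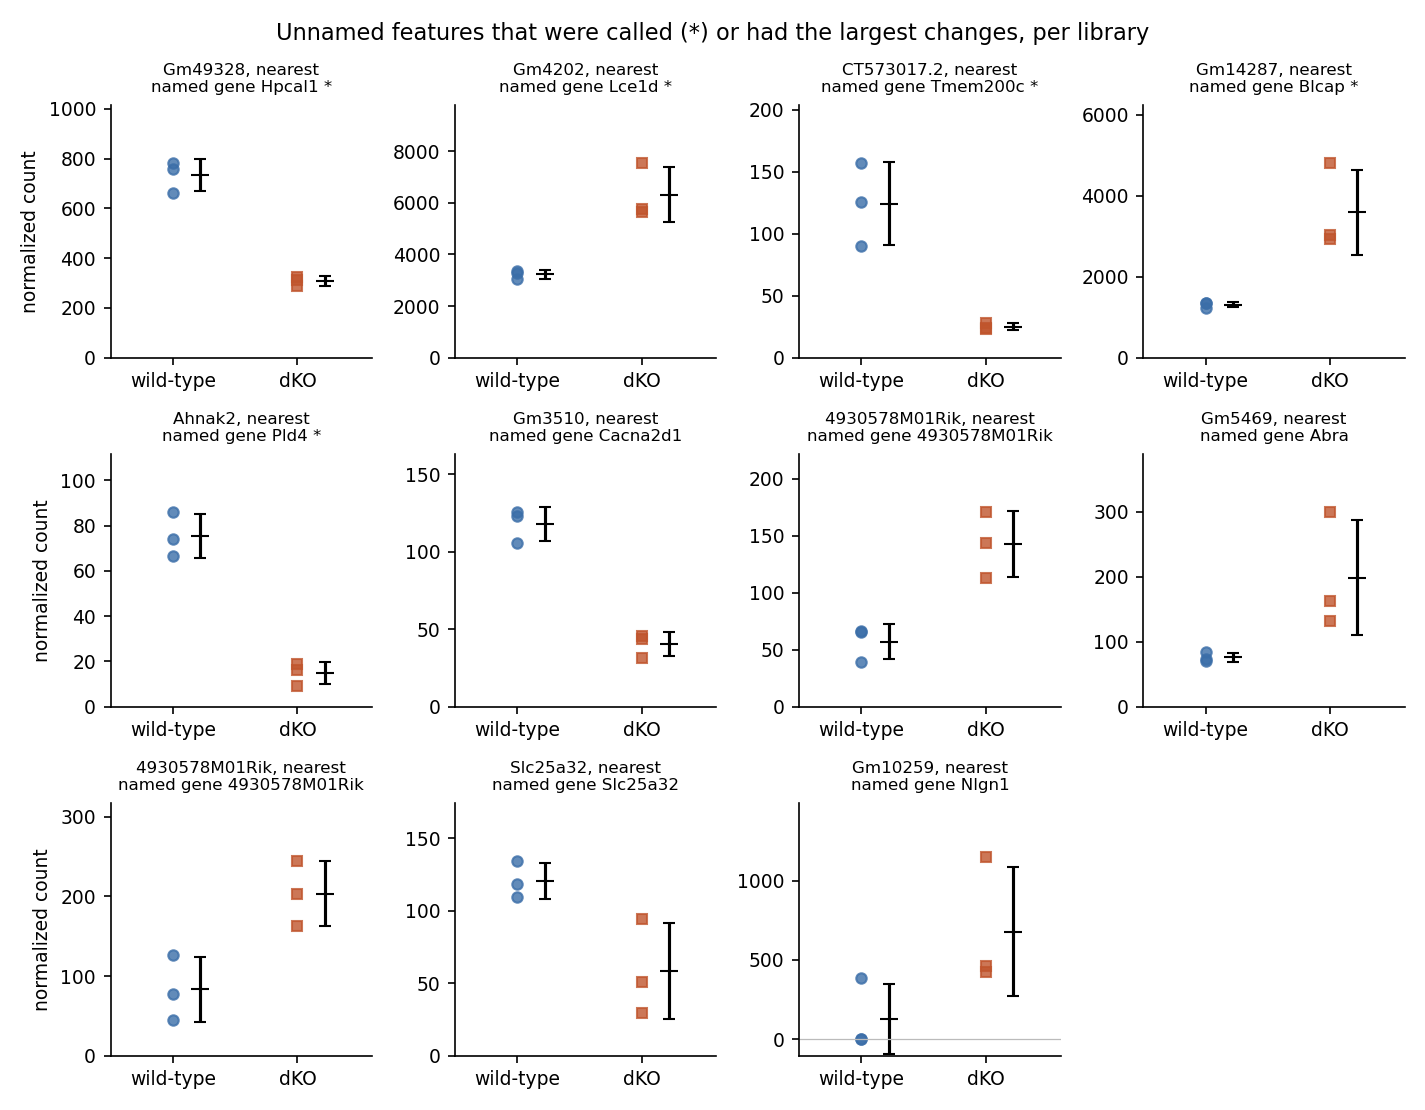
Normalized counts (linear axis) of the unnamed features that were called (asterisk) or were among the 5 largest rises or falls without overlap where the mean reached 50, except 1 that is not reported, 1 point per library, with mean ± SD (n = 3) beside the points. All features shown separate the genotypes, which was a condition of selection for those not called. Gm10259 was at 0 in 2 wild-type libraries and Gm5469 had 1 dKO library at 299.

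Where the genotypes did not overlap and the mean reached 50, the largest differences included several that missed the threshold of limma. DESeq2 called 4 of those given here, GSMG0030194, GSMG0013606, GSMG0013607 and GSMG0066350, with adjusted P-values of 0.000147, 0.00313, 0.0121 and 0.00223. GSMG0030194, the non-coding RNA Gm3510 upstream of Cacna2d1, a calcium channel subunit gene, read 123, 105 and 125 in wild-type and 45.4, 43.9 and 31.3 in dKO cortex (-1.54 ± 0.25, adjusted P-value 0.0656), and Cacna2d1 had a log2 fold change of -0.16. 2 adjacent features in the non-coding gene 4930578M01Rik were higher in dKO cortex. GSMG0013606 read 39.0, 66.6 and 65.8 against 171, 113 and 144, and GSMG0013607 read 78.0, 127 and 44.7 against 244, 203 and 162 (1.32 ± 0.27 and 1.38 ± 0.34, adjusted P-values 0.176 and 0.253). GSMG0066350 (Gm5469, a pseudogene of the hnRNP gene Hnrnpa3) read 70.4, 73.0 and 84.2 against 132, 163 and 299. GSMG0013903, an untranslated 3′ stretch of the mitochondrial folate carrier gene Slc25a32, read 109, 134 and 118 against 94.4, 29.3 and 51.0. GSMG0013606 (chr15:98991792-98993428), GSMG0013607 (chr15:98993683-98996446), GSMG0066350 (chr15:41922034-41923555) and GSMG0013903 (chr15:39091238-39092443) lie on the chromosome of Khdrbs3, outside the window left out. The part of their linkage to the deleted gene was not tested.

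The classes of annotation differed in the direction of their members (examples named in the rest of the text beyond the fixed rule were chosen after their values were seen). Of 456 pseudogene features, 47 were higher and 12 lower at an unadjusted P-value under 0.05, with a median log2 fold change of 0.13. Of 103 TEC features, 0 were higher and 15 lower, with a median of -0.21, and of 57 intronic features 0 were higher and 5 lower (-0.10). Long non-coding features gave 10 higher and 24 lower (-0.08), protein-coding ones 17 and 33 (-0.01), and those without a GENCODE gene 27 and 10 (0.03). Over all features, 4.92% were higher and 6.58% lower. In 6 of the 15 TEC features the dKO mean was under 10, so that they reached the threshold on the mean through wild-type, and their number says nothing of the direction of the class. The 4304 named features with a mean under 200 had a median of -0.18, with 73 higher and 470 lower. The median level was 37.1 normalized counts for features without a GENCODE gene, 43.6 for TEC and 35.1 for intronic ones. The part of level in the direction of a class was not tested. Where the mean reached 50, the median was 0.12 for 297 pseudogene features and -0.05 for 49 TEC features, of which 0 were higher and 6 lower.

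The alternatives below all kept the features chosen at a mean of at least 10, so they cannot show the part of that filter. Where the mean reached 50, 23 of 49 TEC features (46.9%) had a log2 fold change above 0. The medians of the pseudogene and TEC classes kept their sign under each normalization, pseudocount and tool tried. They also kept it with each library left out, and ran from 0.10 to 0.21 and from -0.35 to -0.06. The counts moved more: pseudogene features gave 18 higher and 11 lower without dKO 3, 26 and 9 without dKO 2, 28 and 11 without wild-type 1, and 76 and 16 without dKO 1. TEC features gave 2 higher and 5 lower without wild-type 1, 0 and 7 without dKO 2, 0 and 8 without dKO 3, 0 and 9 without wild-type 2, and 1 and 8 under quantile normalization. Those of protein-coding, long non-coding and intronic features each turned to 0.05 under quantile normalization, which also moved the split of all 1714 at an unadjusted P-value under 0.05 from 101 higher and 99 lower to 145 and 63. The protein-coding median was also 0.03 without dKO 3 and 0.07 without wild-type 1, the intronic one 0.00 and 0.01, and the median without a GENCODE gene -0.03 without dKO 1 or without wild-type 3.

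**Figure D2:**
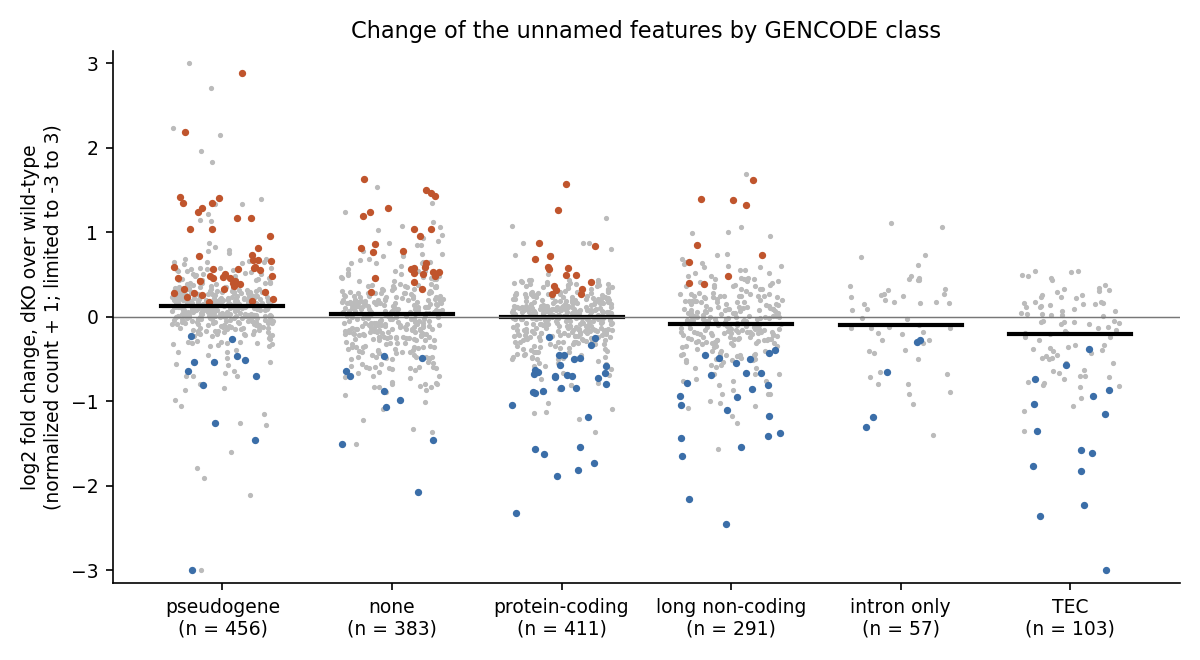
Log2 fold change (dKO over wild-type, normalized count + 1, limited to -3 to 3) of each unnamed feature off the mitochondrial genome by GENCODE class, with the class median as a bar. Orange and blue points are higher and lower at an unadjusted P-value under 0.05. Pseudogene features lie mostly above 0 and TEC features mostly below it.

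432 of the 456 pseudogene features were processed copies. For 366 a protein-coding gene held at least 50% of the 31-base words of the pseudogene's transcript, and for 338 of these that parent was tested under its own symbol, with 215 parents in all. The median log2 fold change was 0.11 for the features and 0.12 for the parents. 32 features were higher and 9 lower at an unadjusted P-value under 0.05, and of the parents 42 were higher and 4 lower. Across the 338 pairs Spearman's rho was 0.23, a description over pairs that share libraries and parents. The median feature stood at 5.05% of the normalized count of its parent, and 31 of 338 stood above theirs. GSMG0027930 (Gm11223) did, with 98951, 86679 and 93723 in wild-type and 118725, 110837 and 130426 in dKO cortex (0.36 ± 0.08, adjusted P-value 0.229), where Stmn1 had 66631, 81662 and 67747 against 65909, 85438 and 76009. Exon of Gm11223 covers only 450 of the 3724 bases of GSMG0027930. The feature did not overlap between genotypes and Stmn1 did. Gm9800, a pseudogene of the chromatin-associated protein gene Ptma, read 25872, 30719 and 26060 against 30669, 32670 and 35363, and Ptma 61585, 76488 and 66027 against 78918, 84099 and 89311.

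71 of the 338 had a parent among the cytosolic ribosomal protein genes. 16 of them were higher and 0 lower at an unadjusted P-value under 0.05, with a median of 0.22. Their summed level was 72137, 85334 and 85988 in wild-type and 79625, 109112 and 114086 in dKO cortex, so that dKO 1 lay within the wild-type range and dKO 2 and dKO 3 above it. The 39 parents likewise stood within the wild-type range in dKO 1 and above it in dKO 2 and dKO 3, at 0.990 times the wild-type mean in dKO 1 and 1.26 and 1.29 times in dKO 2 and dKO 3. Without dKO 1, the ratio of the summed pseudogene features to wild-type was 1.38 in place of 1.24. Rps12-ps24 read 954, 958 and 1020 against 1058, 1645 and 1806, with dKO 1 nearest to wild-type and no overlap. The other 267 pairs had a median of 0.09, with 16 features higher and 9 lower.

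Some pseudogene features were lower in dKO cortex. Gm2423, a copy of the 14-3-3 gene Ywhaq, read 1222, 1247 and 1194 in wild-type and 1055, 736 and 815 in dKO cortex (-0.51 ± 0.13, adjusted P-value 0.265), and its parent had a log2 fold change of 0.08. Atp6v0c-ps2, a copy of a proton pump subunit gene, read 424, 430 and 416 against 254, 345 and 285, and Gm9299, a copy of Armcx3, 328, 321 and 390 against 232, 209 and 195, beside -0.19 for Armcx3. All 3 separated the genotypes without passing the threshold of limma, and DESeq2 called Gm2423 and Gm9299. Without dKO 1, 15 of the 1714 passed in place of 5, Gm2423 and Rps12-ps24 among them.

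A few features were present in some libraries and absent in others. 12 of the 1714 (0.700%) were at 0 in at least 1 library and at 50 or more normalized counts in another, against 0.190% of all features, and 10 of the 12 were pseudogenes. Gm12671, wholly contained in Gapdh by its 31-base words, read 0, 716 and 659 in wild-type and 339, 0 and 0 in dKO cortex. Gm10259, a copy of Gm10184, read 0, 385 and 0 against 1145, 426 and 459, and its log2 fold change of 6.39 had a standard error of 2.82 (adjusted P-value 0.488). A piece of Pgk1-rs7, a copy of the glycolytic enzyme gene Pgk1, was at 86.2 in dKO 1 and at 0 elsewhere. In 2 of the 12 the genotypes did not overlap. The 7 Gapdh copies summed to 35796, 39086 and 39009 in wild-type and 36622, 35328 and 35108 in dKO cortex, and Gapdh itself to 10172, 9565 and 12146 against 9899, 11048 and 11014.

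**Figure D3:**
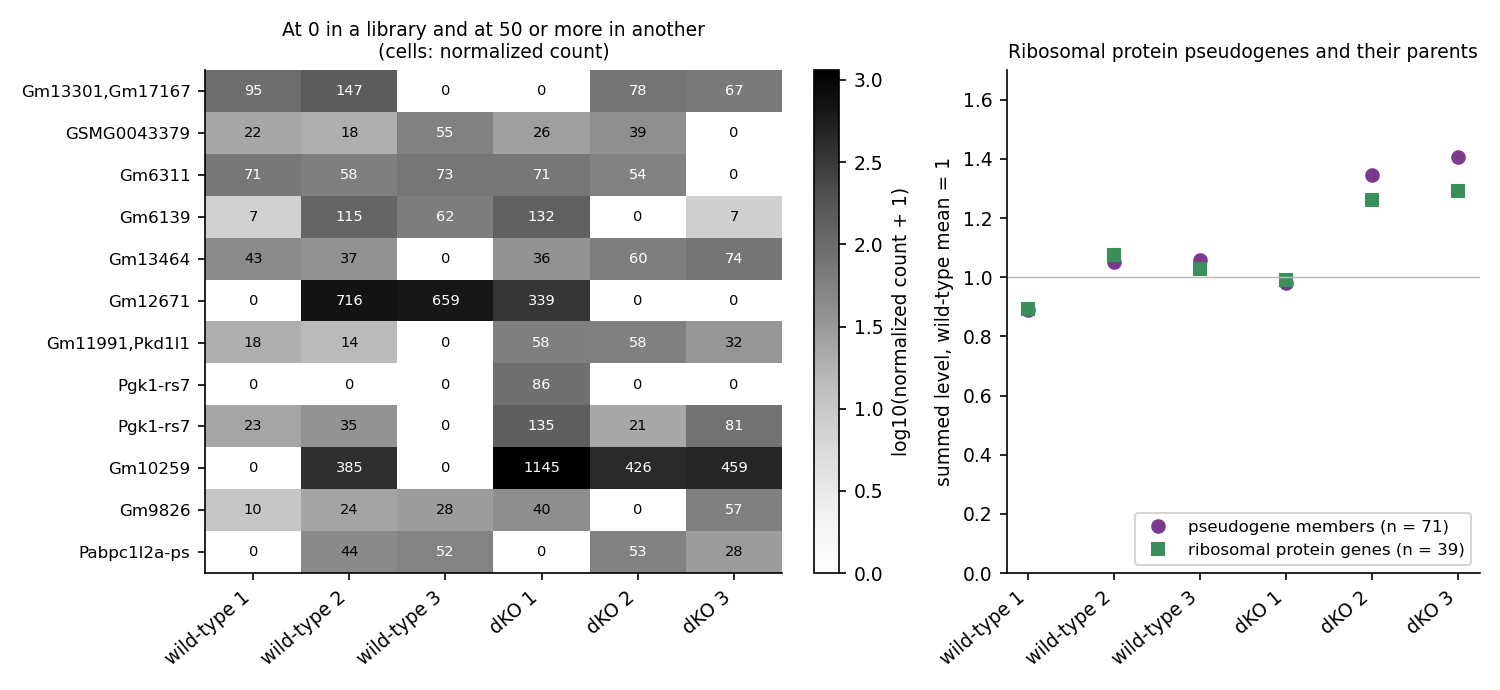
Left, normalized counts of the 12 unnamed features at 0 in a library and at 50 or more in another, with shading by log10(normalized count + 1). Right, summed level of 71 ribosomal protein pseudogene features and of their 39 parents per library, relative to the wild-type mean. The zeros fall in both genotypes, and dKO 1 lies beside wild-type while dKO 2 and dKO 3 lie above it.

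124 of the protein-coding features hold a gene whose symbol no row of the table carries. The highest mean among them was that of Cdk5r1, which encodes p35, the activator of the neuronal kinase Cdk5, at 9152 normalized counts per kb. It read 35814, 35698 and 34993 in wild-type and 39653, 36542 and 36510 in dKO cortex (0.08 ± 0.07, adjusted P-value 0.670). The POU factor gene Pou3f3 read 30237, 30500 and 25101 against 35963, 27810 and 29925, and Sox12, of the SoxC group, 17494, 16755 and 17039 against 19303, 16408 and 16936. Both overlapped between genotypes. The higher of 2 Kctd12 features, a GABA-B receptor auxiliary subunit gene, and the RNA-binding protein gene Rbm15b likewise overlapped, whereas the lower Kctd12 feature, given with Mir5130, did not. 3 of the 124 (2.42%) were higher and 15 (12.1%) lower at an unadjusted P-value under 0.05, against 4.92% and 6.58% of all features. Fzd2, a Wnt receptor gene, read 1127, 1552 and 1452 against 1915, 1961 and 1909 (0.50 ± 0.12, adjusted P-value 0.235), and Ajm1, an apical junction gene, 2112, 1615 and 2077 against 1450, 1376 and 1256 (-0.50 ± 0.12, adjusted P-value 0.229). DESeq2 called both.

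The other 287 protein-coding features belong to a gene that is listed under its symbol elsewhere in the table. For 284 the listed gene was tested, and Spearman's rho between both log2 fold changes was 0.32, with the same sign in 175. Etv1, a transcription factor gene of layer 5 neurons, is an example of a piece beside its gene: the piece read 540, 332 and 391 against 281, 233 and 245 (-0.71), and the listed gene had -0.39. Inpp1, an inositol phosphatase gene, is an example of the opposite: the piece 581 bases beyond it read 311, 262 and 247 against 390, 421 and 422 (0.59), where the listed gene had -0.44.

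Of the 291 long non-coding features 3.44% were higher and 8.25% lower at an unadjusted P-value under 0.05, against 4.92% and 6.58% of all features, and the following examples of non-coding features were picked for being lower. 3 TEC features lie in a row near Satb1, a chromatin organiser gene, on chromosome 17, and Satb1 is the nearest named gene of 2 of them and Gm20098 that of Gm37176. Gm37176 read 133, 95.6 and 64.0 in wild-type and 51.7, 35.6 and 61.5 in dKO cortex, Gm37593 read 48.5, 25.8 and 23.7 against 15.4, 16.7 and 9.28, and Gm37266 read 27.6, 21.5 and 14.0 against 2.72, 16.7 and 2.32. Their log2 fold changes were -0.94, -1.15 and -1.82 (adjusted P-values 0.360, 0.387 and 0.393), and Satb1 had 0.12. Gm37266 overlapped between genotypes. Its dKO mean was 7.26, so that it reached the threshold on the mean through wild-type and the filter favoured its direction. GSMG0024858, in Gm9916 beside the microRNA gene Mir137, read 246, 245 and 243 against 153, 87.8 and 123 (-1.04 ± 0.21, adjusted P-value 0.156). GSMG0029964, in 6330403L08Rik, 102 bases upstream of the growth factor gene Pdgfa, read 714, 610 and 596 against 398, 429 and 384 (-0.66 ± 0.12, adjusted P-value 0.105), while Pdgfa had 0.00. Gm12063, 19 bases upstream of the transcription factor gene Bcl11a, read 310, 328 and 280 against 238, 210 and 208 (-0.48 ± 0.14, adjusted P-value 0.321). None of these passed the threshold of limma, and DESeq2 called the features beside Mir137 and Pdgfa.

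5 features hold a microRNA gene. Mir670hg read 145, 145 and 236 in wild-type and 212, 278 and 228 in dKO cortex and overlapped. The host of the Mir17 cluster read 32.3, 40.8 and 14.0 against 12.7, 54.4 and 30.2, and that of let-7a-1, let-7d and let-7f-1 read 15.2, 23.6 and 5.26 against 10.9, 20.9 and 2.32. In these 3 the genotypes overlapped. The feature with Mir5130, in Kctd12, read 467, 407 and 450 against 395, 331 and 324 (-0.34 ± 0.13, adjusted P-value 0.393), and that with Mir3061 overlapped.

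The 383 features without a GENCODE gene included features just downstream of a gene. GSMG0037185, 690 bases downstream of the phosphatase gene Dusp4, read 1760, 1917 and 1753 in wild-type and 2983, 2300 and 2262 in dKO cortex, and its log2 fold change of 0.46 ± 0.11 (adjusted P-value 0.242) was close to the 0.42 of Dusp4. Other features had a larger difference than their neighbour without reaching the threshold of limma. GSMG0021527, 3920 bases downstream of Mpped2, read 103, 104 and 103 against 181, 190 and 179 (0.82 ± 0.17, adjusted P-value 0.171), and Mpped2 had 0.18. GSMG0031717, 578 bases downstream of the splicing factor gene Luc7l2, read 109, 60.1 and 62.2 against 179, 137 and 147 (1.04 ± 0.26, adjusted P-value 0.263), and Luc7l2 had 0.12. 2 features downstream of the exocyst gene Exoc6b read 47.6, 37.6 and 34.2 against 73.5, 84.7 and 75.4, and 13.3, 4.30 and 5.26 against 23.6, 25.1 and 20.9. The second of these had a wild-type mean under 10 and reached the threshold on the mean through dKO cortex, so that the filter favoured its direction. In each of the 5 features the genotypes did not overlap, and DESeq2 called those beside Dusp4, Mpped2 and Luc7l2.

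The counts were also taken by distance from the nearest named gene. Within 1 kb, 23 features (4.88%) were higher and 26 (5.52%) lower at an unadjusted P-value under 0.05, with a median log2 fold change of -0.02. At 1 to 10 kb 28 (4.70%) were higher and 39 (6.54%) lower (0.01), at 10 to 100 kb 34 (7.59%) and 25 (5.58%) (0.06), and beyond 100 kb 16 (8.60%) and 9 (4.84%) (0.08), against 4.92% and 6.58% of all features. Pseudogenes made up 13 of the 471 features within 1 kb and 123 of the 186 beyond 100 kb, and the median of the pseudogenes alone was -0.12 within 1 kb, 0.15 at 1 to 10 kb, 0.14 at 10 to 100 kb and 0.12 beyond. Differences between distance classes were not tested.

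Shares were taken of all normalized counts of a library. The 1714 features held 6.42%, 6.94% and 6.38% in wild-type and 6.17%, 7.05% and 6.20% in dKO cortex. The genotypes overlapped (exact permutation test over libraries, P-value 0.6). Those off the mitochondrial genome, a sum added after the data were seen, held 2.64%, 2.60% and 2.51% against 2.71%, 2.72% and 2.75%, without overlap. Features beyond 100 kb held 0.773%, 0.741% and 0.666% against 0.833%, 0.811% and 0.871%. By the same test the P-value was 0.1, unadjusted for the distance classes and the lowest that 3 against 3 libraries can give. Of the difference of 0.111 percentage points between the means beyond 100 kb, 0.0107 was left without the 10 features of highest mean, Gm11223 among them. The shares within 1 kb (0.456%, 0.438% and 0.421% against 0.461%, 0.423% and 0.422%) and at 1 to 10 kb overlapped. So did those at 10 to 100 kb (exact permutation test, unadjusted P-value 0.3).

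Against the nearest named gene that was itself tested, 166 of 1701 features (9.76%) had a ratio that differed between genotypes at an unadjusted P-value under 0.05, 89 higher and 77 lower, where 1900 of 18953 features (10%) did against their nearest other named feature. With adjustment over all features, a fit added after the data were seen, 0.0369% of them and 1 unnamed feature passed. It did not pass with the planned adjustment over the 1701 ratios alone. That feature, GSMG0043316 (chr12:64787306-64787683), overlaps the RefSeq pseudogene Dnajb6-ps, 130228 bases upstream of Gm527. It read 22.8, 20.4 and 21.9 in wild-type and 61.7, 52.3 and 68.4 in dKO cortex (1.44 ± 0.29, adjusted P-value 0.171), and Gm527 had -0.44.

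Features and the named gene beside them were compared downstream and upstream of the gene. Some features are pieces of that gene: for 254 of the 284 pieces of tested genes above, the nearest named gene was their own. Such pairs were not left out. Within 1 kb downstream, Spearman's rho between the log2 fold changes of feature and gene was 0.36 (Pearson's r 0.37) over 224 pairs, and 154 had the same sign. Within 1 kb upstream it was 0.11 (Pearson's r 0.27) over 227 pairs, with the same sign in 117. At 1 to 10 kb it was 0.25 over 371 pairs downstream and 0.21 over 136 pairs upstream, with the same sign in 210 and 78. At 10 to 100 kb it was -0.01 over 123 pairs downstream and -0.04 over 159 pairs upstream. Pairs share libraries and depth, downstream features within 1 kb had a higher median level (89.0 against 29.9 normalized counts), and the difference between the sides was not tested.

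**Figure D4:**
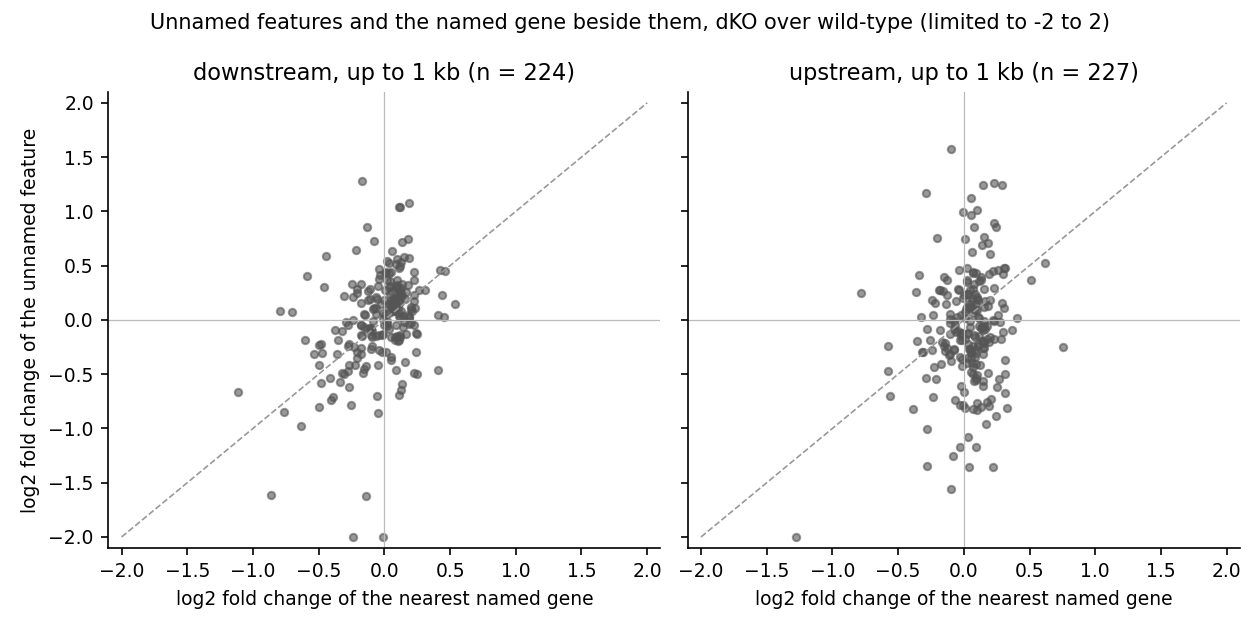
Log2 fold change (dKO over wild-type, limited to -2 to 2) of unnamed features within 1 kb of a named gene (vertical axis) against that of the gene (horizontal axis), downstream (n = 224) and upstream (n = 227). The dashed line marks equal change. Feature and gene had the same sign in 154 pairs downstream and 117 upstream.

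The 13 mitochondrial features, most of which overlap genes of the respiratory chain or of ribosomal RNA of the organelle, held 3.45% to 4.34% of all normalized counts per library, more than the other 1701 together. By limma 0 of them differed at an unadjusted P-value under 0.05, and the median log2 fold change was -0.05. The feature of mt-Co1, a cytochrome c oxidase subunit, had the highest level per kb and read 452188, 520394 and 488414 in wild-type and 439187, 513821 and 455222 in dKO cortex. Wild-type 2 and dKO 2 were high and the genotypes overlapped in all 13. Wild-type 3 alone was low in GSMG0050945, the ribosomal RNA locus Gm26917 on chromosome 17, with 87033, 75337 and 42472 against 92926, 75378 and 76234.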

How the data were processed

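PolyA+ RNA of 3 wild-type and 3 dKO cortices was sequenced by the authors (150-base paired ends, stranded kit), and per the labels mm10, STAR 2.7.5a, FastQC, Picard, SAMtools and DESeq2 were used. The deposited values are a normalized signal per feature of the FAST database, read counts divided by a size factor. The strand setting of the counting and the counting program are not given in the sources used here. 100% of positive values were whole multiples of 1 read (tolerance 0.01), worth 0.877 to 1.16 normalized counts. Columns of the authors' own comparisons were not used.

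The members and lists were chosen with earlier results of these data known. Genotypes were compared with limma 3.58.1 (R 4.3.3, trend and robust) after log2 transformation of the normalized count + 1, for features whose mean reached 10, which understates the change of low features, and P-values were adjusted by Benjamini-Hochberg over all 18970 features. edgeR 4.0.16 and DESeq2 1.42.0 on the recovered reads were alternatives. The fits were tested on simulated counts. Ratios to the nearest tested named gene were fitted likewise, with an all-feature fit added after the data were seen. Class medians under other fits, and sums without the mitochondrial genome, were added then too. Members were annotated with GENCODE M21. Named features were those called, the 5 largest rises and falls at a mean of at least 50 without overlap, the 3 highest means per distance class, those changed relative to their neighbour, and their nearest named genes. 1 of these features is not reported here. The labels do not say whether samples came from separate litters, so P-values measure the spread between these samples. Python 3.11.15, scipy 1.17.1 and pandas 2.3.3 were used for the rest.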

Additional observations from a re-analysis of the deposited data

How the results depend on the processing

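The count of 5 features at an adjusted P-value under 0.05 became 32 with DESeq2 on the recovered reads, 0 with limma without the trend and robust options, and 0 among the features that overlap no GENCODE gene. It was between 2 and 15 when single libraries were left out, 15 without dKO 1, 2 without wild-type 1 and 3 without dKO 2, dKO 3 or wild-type 3. The replicate numbers did not pair the libraries, with correlations of deviations of 0.098, -0.228 and -0.079 for numbers 1 to 3, and with the replicate block the count was 2. Of 79 values of the 5 called features, 57 were still called and 0 reversed. GSMG0009352 lost its call in 10 alternatives, GSMG0016876 in 6, GSMG0043257 in 3, GSMG0024608 in 2 and GSMG0007870 in 1. At an unadjusted P-value under 0.05, the 200 features became 130 at a mean of at least 50 and 37 among those without a GENCODE gene, 2 alternatives with fewer features, and lay between 125 and 237 when single libraries were left out. Relative to the nearest named gene the count of 0 became 1 under quantile normalization and 1 with adjustment over all features, and lay between 0 and 1 when single libraries were left out.

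The difference in summed share, -0.107 percentage points in all, turned to 0.0495 without the 10 features of highest mean, to 0.143 without the mitochondrial genome and to 64231 normalized counts as a plain sum, and lay between -0.394 and 0.0738 when single libraries were left out. Within 1 kb the difference of -0.00285 turned to 5943 normalized counts as a plain sum and ran from -0.0155 to 0.00602. At 1 to 10 kb the difference of 0.00131 turned to -0.0396 as a mean log2 value and to -0.00664 by distance to the nearest tested gene, and ran from -0.0099 to 0.0142. The causes were not tested. Depth limits what features near 10 normalized counts can show.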
